A study of Mus musculus with 10 samples.

Results

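Integrins are cell surface receptors made of 1 alpha and 1 beta subunit, and 7 mouse genes for such subunits known from platelets were followed: Itga2b, Itga2, Itga5, Itga6 and Itgav for alpha chains, and Itgb3 and Itgb1 for beta chains. They were chosen by name from the 23420 genes of the count table, with earlier results of these data known. The samples were platelets of adult mouse peripheral blood, separated by fluorescence-activated sorting into 5 Tomato+ and 5 Tomato- libraries, which share tissue, species and protocol and differ by the Tomato reporter protein. Per the labels, sequencing libraries came from Smart-seq+ amplified cDNA and the Nextera XT kit. No source used here names the driver or strain of the reporter, or says that each library had its own animal. All p-values below therefore reflect spread among these 10 libraries, part of which may be technical.

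An integrin binds its ligand only when both chains are paired at the surface, and the alpha chain largely sets which ligand is bound. On platelets αIIbβ3, made of the Itga2b and Itgb3 products, binds fibrinogen and von Willebrand factor and is the receptor that links activated platelets to each other. The Itgb3 product also pairs with αv, the product of Itgav, as a vitronectin receptor. The Itgb1 product pairs with α2 (Itga2) to bind collagen, with α5 (Itga5) to bind fibronectin and with α6 (Itga6) to bind laminin. Platelets have no nucleus, so their mRNA was inherited from the megakaryocytes that shed them.

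Library totals ran between 6505769 and 16179973 counts in Tomato+ platelets and between 5411417 and 10596707 counts in Tomato- platelets. A level is given below as CPM, counts per 1000000 counts of the library, or as CPM per kb, the same divided by the gene's merged exon length in kilobases, which allows genes to be compared with each other. The libraries were sparse: between 1118 and 2450 genes had a count in Tomato+ libraries and between 807 and 2430 genes had one in Tomato- libraries. Tomato- replicates 1, 2 and 5 stood apart. In each of these 3 libraries fewer than 1000 genes were detected. They also lacked genes that were abundant elsewhere: 12, 14 and 11 genes with at least 100 CPM in all 9 other libraries had 0 or 1 count in Tomato- replicates 1, 2 and 5, against 0 to 2 such genes in each of the remaining libraries. All 9 platelet marker genes had counts, and they summed to between 44454 and 57784 CPM in Tomato+ libraries and between 48389 and 57942 CPM in Tomato- libraries.

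For none of the 7 genes did a difference of Tomato+ from Tomato- platelets pass the test. Itga2b, Itgb3, Itga6 and Itgb1 had enough counts to be tested. Of these 4, 0 were called by edgeR's quasi-likelihood test at a Benjamini-Hochberg adjusted p under 0.05, beside 0% of all 1016 genes tested. Without adjustment, 0 of the 4 and 9 of the 1016 had p under 0.05, and DESeq2 and limma voom, which called 218 and 1 of all genes, also called 0 of the 4. The CPM ranges of the 2 groups overlapped for all 4 genes, and 0.591% of the 1016 tested genes had ranges that did not overlap. The median log2 fold change, Tomato+ over Tomato-, was 0.05 over the 4 genes and 0.21 over all tested genes with TMM scaling, and -0.14 and -0.03 with scaling by total counts. The estimates of Itgb3 and Itga6 were positive with TMM and negative with DESeq2 size factors or total counts, while those of Itga2b and Itgb1 kept their sign under these 3 scalings. In platelets sorted in bulk, fewer cells that carry a transcript and less of it per cell cannot be told apart.

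Itga2b, which encodes αIIb, the alpha chain of the fibrinogen receptor, was the most abundant integrin transcript in all 10 libraries. The gene lies on chromosome 11, positions 102453297 to 102470122 of GRCm38 on the minus strand. It had 9437, 7388, 6131, 8662 and 11916 CPM in Tomato+ replicates 1 to 5, and 11162, 8277, 13348, 10576 and 7534 CPM in Tomato- replicates 1 to 5. No library was near 0, the highest was a Tomato- library and the lowest a Tomato+ library, and the groups overlapped over most of their range. The means were 8707 ± 2191 CPM in Tomato+ platelets and 10179 ± 2334 CPM in Tomato- platelets (SD, n = 5 each). The log2 fold change was -0.03 with a standard error of 0.26 and a 95% interval from -0.59 to 0.52, a fold between 0.667 and 1.44 (edgeR adjusted p = 0.9996). It was the narrowest interval of the 4 tested genes.

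**Figure D1:**
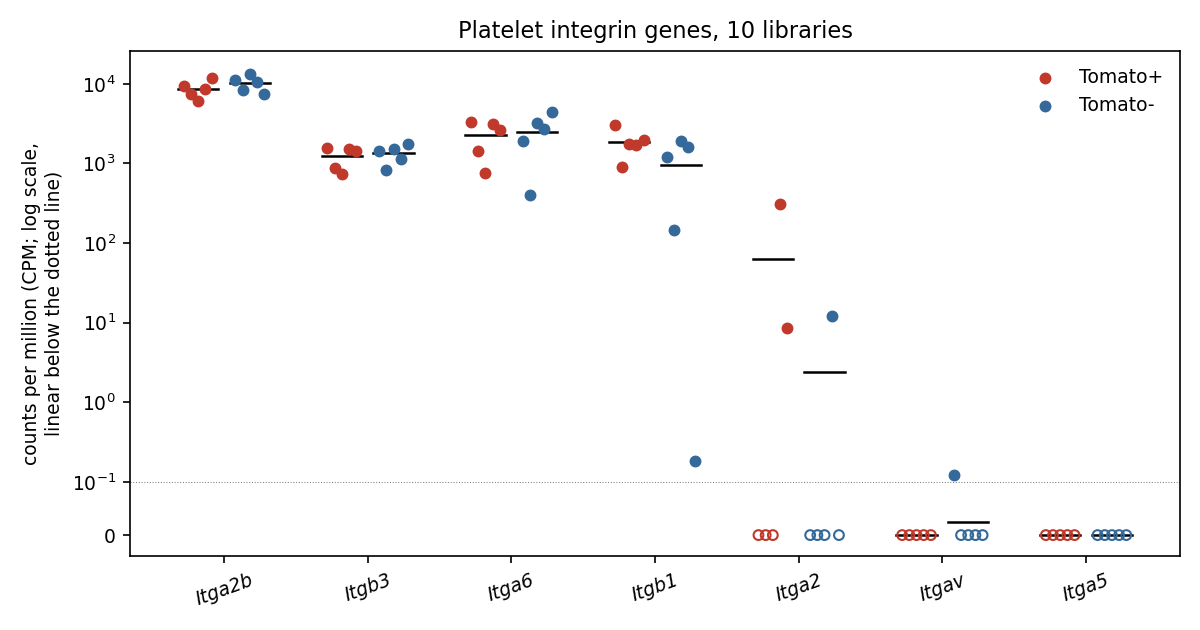
Level of each of the 7 integrin genes in CPM on a symmetric log axis, Tomato+ libraries left of Tomato- libraries. Each dot is a library, an open circle is a library at 0 and a bar is the group mean. Itga2b lies between 6131 and 13348 CPM in all 10 libraries, Itgb1 reaches down to 1 count in Tomato- replicate 5, and Itga5 is at 0 throughout.

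The sequences just before the RefSeq start of Itga2b, the most abundant member, and of Itga5, the member with 0 counts, are shown side by side, since megakaryocyte promoters are known for GATA and ETS factor sites. They span 250 bases each on GRCm38.p6 and read 5′ to 3′ on the minus strand, chr11:102469884-102470133 for Itga2b and chr15:103366792-103367041 for Itga5. The start of Itga2b used here, 102469883, is also that of 1 GENCODE transcript, but another begins at 102470122, so 239 of the 250 bases lie inside the gene as GENCODE draws it. Capitals mark GGAAG, a core of ETS factor sites, on either strand, so that it reads CTTCC on the opposite one.
Itga2b: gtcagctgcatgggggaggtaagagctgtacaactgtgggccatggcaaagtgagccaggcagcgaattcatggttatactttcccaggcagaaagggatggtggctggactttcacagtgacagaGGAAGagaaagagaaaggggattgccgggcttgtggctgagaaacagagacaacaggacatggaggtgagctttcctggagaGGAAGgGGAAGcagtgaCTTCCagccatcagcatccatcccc
Itga5: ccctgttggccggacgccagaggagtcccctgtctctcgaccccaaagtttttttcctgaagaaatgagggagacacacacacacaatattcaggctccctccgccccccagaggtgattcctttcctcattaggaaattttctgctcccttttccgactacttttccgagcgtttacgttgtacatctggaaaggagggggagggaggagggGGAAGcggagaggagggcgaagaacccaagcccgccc
Both strands were searched for GGAAG and for GATAA, a core of GATA factor sites. GGAAG was found 4 times before Itga2b, 2 times each before Itgav and Itgb1, 1 time before Itga5 and 0 times before Itga2. Of 32851 promoters of the same length, 64.1% held GGAAG and 3.39% held it at least 4 times. GATAA was found before none of these 5 genes, so no match of one motif overlapped the other, and 22.6% of the promoters held it. Itgb3 and Itga6 were not searched. A match describes letters in a window and is no measure of binding.

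Itgb3 encodes β3, the partner of αIIb, and had counts in every library at a lower level than its partner. The gene lies on chromosome 11, positions 104608000 to 104670476, plus strand. It had 1547, 887, 742, 1523 and 1449 CPM in Tomato+ replicates 1 to 5, and 1431, 829, 1519, 1129.5 and 1761 CPM in Tomato- replicates 1 to 5. In each group 1 or 2 libraries were low and the rest lay at or above 1129.5 CPM, and the ranges overlapped. The means were 1229.7 ± 384 CPM in Tomato+ platelets and 1334 ± 361 CPM in Tomato- platelets (SD, n = 5 each). The log2 fold change was 0.10 with a standard error of 0.49 and a 95% interval from -0.94 to 1.13 (edgeR adjusted p = 0.9996).

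Per kilobase of exon, Itga2b exceeded Itgb3 in every library. Itga2b averaged 1596 ± 402 CPM per kb in Tomato+ platelets and 1866 ± 428 CPM per kb in Tomato- platelets, where Itgb3 averaged 208 ± 65.1 in Tomato+ and 226 ± 61.2 CPM per kb in Tomato- platelets (SD, n = 5 each). Among all genes ranked by CPM per kb, Itga2b held places 25 to 51 in Tomato+ libraries and 23 to 47 in Tomato- libraries. Itgb3 held places 160 to 318 in Tomato+ libraries and 161 to 300 in Tomato- libraries. The ratio of Itga2b to Itgb3 per length was 7.92 ± 1.42 in Tomato+ platelets and 8.70 ± 2.44 in Tomato- platelets. It depends on the length used: with the longest transcript of each gene it was 12.3 ± 2.21 in Tomato+ and 13.5 ± 3.79 in Tomato- platelets.

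Expressed as a share of the pair, Itga2b made up 86.8, 90.0, 89.9, 86.0 and 89.9% of the Itga2b and Itgb3 counts per length in Tomato+ replicates 1 to 5, and 89.4, 91.5, 90.5, 91.0 and 82.2% in Tomato- replicates 1 to 5. The other libraries lay between 86.0 and 91.5%, and Tomato- replicate 5 was lowest. The means were 88.5 ± 1.95% in Tomato+ platelets and 88.9 ± 3.83% in Tomato- platelets (SD, n = 5 each). Their difference of -0.39 percentage points was smaller than the spread between all 10 libraries (exact two-sided permutation test, p = 0.833, adjusted over 5 pairs p = 1). Without Tomato- replicate 5 the difference was -2.07 points (exact p = 0.0952, adjusted p = 0.278). Without the 3 libraries under 1000 detected genes it was -2.21 points, with every Tomato+ share below the 2 remaining Tomato- shares (exact p = 0.0952, the smallest that 5 against 2 libraries allow, adjusted p = 0.476). The exact test over 252 assignments of the libraries cannot give a p below 0.00794.

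**Figure D2:**
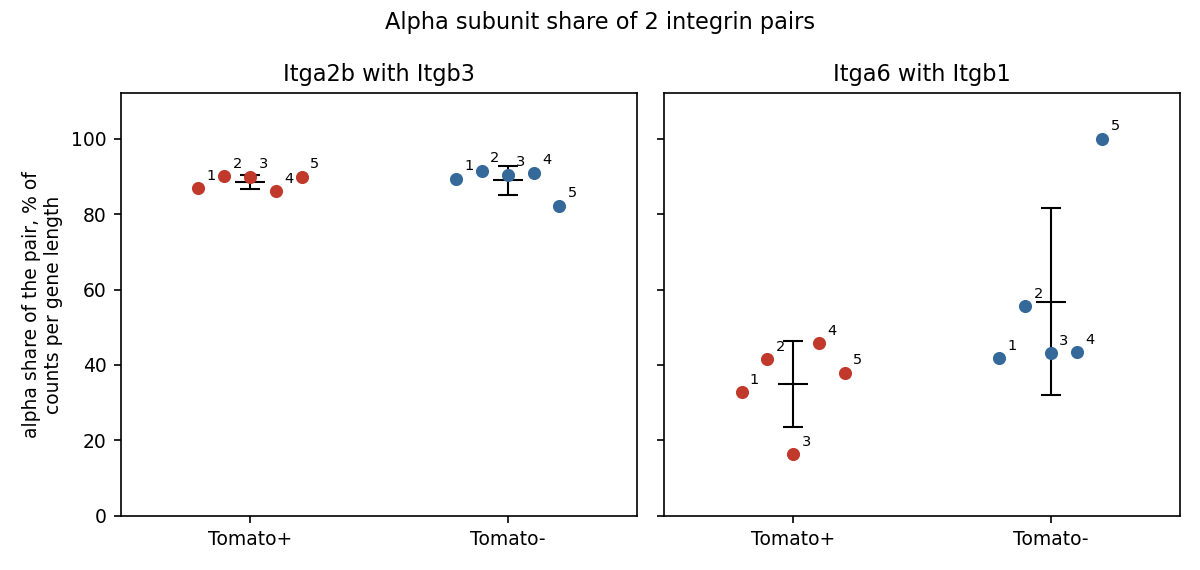
Share of the alpha subunit in the summed counts per length of a pair, in percent, for pairs of an alpha gene with its partner beta gene, Tomato+ left of Tomato-. Points are libraries with their replicate number, and bars are mean ± SD. The Itga2b share sits between 82.2 and 91.5% in all 10 libraries, and the Itga6 share spans 16.3 to 45.8% in Tomato+ and 41.7 to 99.99% in Tomato- libraries.

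Itga6 encodes α6, the laminin-binding partner of β1 on platelets, and varied more between libraries than the αIIbβ3 genes. The gene lies on chromosome 2, positions 71745616 to 71858416, plus strand. It had 3267, 1432, 756, 3157 and 2626 CPM in Tomato+ replicates 1 to 5, and 1889, 401, 3182, 2708 and 4404 CPM in Tomato- replicates 1 to 5. Both the lowest and the highest library were Tomato- libraries, which enclosed the whole Tomato+ range. The means were 2248 ± 1107 CPM in Tomato+ platelets and 2517 ± 1493 CPM in Tomato- platelets (SD, n = 5 each). The log2 fold change was 0.01 with a standard error of 0.55 and a 95% interval from -1.16 to 1.18 (edgeR adjusted p = 0.9996).

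Itgb1 encodes β1, the common partner of α2, α5 and α6, and had the widest interval of the tested members. The gene lies on chromosome 8, positions 128685654 to 128733200, plus strand. It had 3039, 910.1, 1751, 1686 and 1944 CPM in Tomato+ replicates 1 to 5, and 1192, 145, 1897, 1604 and 0.185 CPM in Tomato- replicates 1 to 5, the last being 1 count. The 2 lowest libraries, Tomato- replicates 2 and 5, are among the 3 with few detected genes, and the other 3 Tomato- libraries lay inside the Tomato+ range. The means were 1866 ± 765 CPM in Tomato+ platelets and 968 ± 856 CPM in Tomato- platelets (SD, n = 5 each). The log2 fold change was 0.995 with a standard error of 1.09 and a 95% interval from -1.32 to 3.31 (edgeR adjusted p = 0.9996). It was 0.80 without Tomato- replicate 5, where the Tomato- mean was 1209.6 ± 766 CPM (SD, n = 4), and 0.10 without the 3 libraries under 1000 detected genes.

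The α6 share of the Itga6 and Itgb1 counts per length was 32.7, 41.6, 16.3, 45.8 and 37.9% in Tomato+ replicates 1 to 5, and 41.7, 55.5, 43.1, 43.3 and 99.99% in Tomato- replicates 1 to 5. The Tomato+ shares were mostly lower, but Tomato+ replicate 4 lay within the Tomato- range. The means were 34.9 ± 11.4% in Tomato+ platelets and 56.7 ± 24.8% in Tomato- platelets (SD, n = 5 each), a difference of -21.9 percentage points that did not pass (exact two-sided permutation test, p = 0.0556, adjusted over 5 pairs p = 0.278). Without Tomato- replicate 5, where β1 had 1 count, the difference was -11.0 points (exact p = 0.111, adjusted p = 0.278). Without all 3 libraries under 1000 detected genes it was -8.34 points (exact p = 0.381, adjusted p = 0.952). Which chain was the more abundant depended on the length: with the longest transcript (4310 bases for Itga6, against 9025 bases of merged exons) the α6 share was 50.3 ± 13.6% in Tomato+ and 69.8 ± 17.6% in Tomato- platelets.

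Itga2, whose product pairs with β1 as a collagen receptor, had counts in 3 of the 10 libraries. The gene lies on chromosome 13, positions 114833081 to 114932100, minus strand. Tomato+ replicates 4 and 5 had 310 CPM (5019 counts) and 8.54 CPM (98 counts) and the other 3 Tomato+ libraries 0, while Tomato- replicate 4 had 12.0 CPM (127 counts) and the other 4 Tomato- libraries 0. Nearly all Itga2 counts therefore came from 1 Tomato+ library, and the gene was not tested. Its share of the Itga2 and Itgb1 counts per length was 1.96 ± 4.23% in Tomato+ platelets (SD, n = 5) and 0.106 ± 0.213% in Tomato- platelets (SD, n = 4, leaving out the library with 1 Itgb1 count), with exact permutation p = 0.873 and adjusted p = 1.

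Transcripts of the α5 and αv chains were not detectable at this depth beyond 1 read. Itga5, on chromosome 15, positions 103344286 to 103366763, minus strand, had 0 counts in all 10 libraries. Itgav, on chromosome 2, positions 83724397 to 83806916, plus strand, had 0 counts in the 5 Tomato+ libraries and in 4 Tomato- libraries, and 1 count, 0.123 CPM, in Tomato- replicate 1. A count of 0 allows a level of up to 3 counts, which is between 0.185 and 0.554 CPM in these libraries and covers counting error only, since reads without molecular identifiers are not independent molecules. The shares of Itga5 with Itgb1 and of Itgav with Itgb3 were therefore at or near 0% in both groups. The exact permutation p = 1 for each was fixed by these counts and says nothing about a difference.

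The 7 genes were set within the whole family of 26 integrin genes, 18 alpha and 8 beta, of which 12 had counts. The other 14 were at 0 in all libraries, among them Itgam, the αM chain of myeloid cells. Between 8 and 10 integrin genes had counts in a Tomato+ library and between 7 and 10 in a Tomato- library. Averaged over the 10 libraries, Itga2b led with 1731 CPM per kb and was above the next gene in 10 of 10 libraries. Then came Itgb2 with 387, Itgb1 with 347, Itgb5 with 318, Itga6 with 264 and Itgb3 with 217 CPM per kb. These 5 neighbours did not keep an order: Itgb2 was above Itgb1 in 5, Itgb1 above Itgb5 in 8, Itgb5 above Itga6 in 6 and Itga6 above Itgb3 in 7 of 10 libraries. With the longest transcript as length, Itga6 took place 2 with 553 CPM per kb and Itgb3 stayed at place 6. Itgal followed with 50.7, Itgb4 with 14.3 and Itga2 with 4.64 CPM per kb, and Itgb3 was above Itgal in all 10 libraries.

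**Figure D3:**
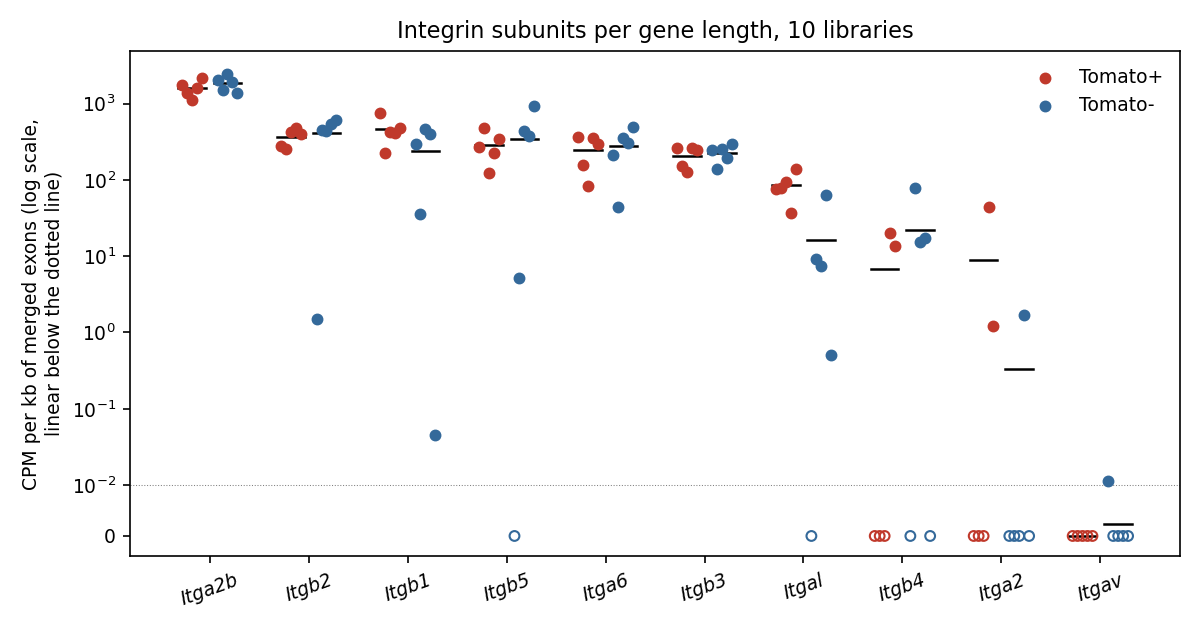
Levels in CPM per kb of the followed genes with counts and of Itgb2, Itgb5, Itgal and Itgb4, on a symmetric log axis. Genes are ordered by their mean over 10 libraries, Tomato+ left of Tomato- for each. Itgax and Itga11, whose means lie between those of Itga2 and Itgav, are not shown. Dots are libraries. Itga2b, at a mean of 1731 CPM per kb, stands above the next 5 genes, whose means run between 217 and 387 CPM per kb.

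Itga2b carried most of the alpha signal, and Itgb3 on average a minor part of the beta signal. Of the summed alpha CPM per kb, Itga2b made up 82.7 ± 3.33% in Tomato+ platelets and 86.4 ± 8.46% in Tomato- platelets, and Itga6 12.3 ± 4.63% in Tomato+ and 12.7 ± 8.50% in Tomato- platelets (SD, n = 5 each). Of the summed beta CPM per kb, Itgb3 made up 15.4 ± 2.83% in Tomato+ platelets and 22 ± 13.2% in Tomato- platelets. Its share was 45.2% in Tomato- replicate 1 and between 12.6 and 19.9% in the other Tomato- libraries. Itgb1 made up 33.8 ± 10.4% of the beta sum in Tomato+ and 22.9 ± 21.7% in Tomato- platelets. All alpha genes together were 58.9 ± 3.39% of the family in Tomato+ and 64.8 ± 11.2% in Tomato- platelets. The SDs of these shares were larger in the Tomato- group, which holds the 3 libraries with few detected genes.

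Among the other integrins, Itgb2 and Itgb5 reached the level of the β1 and β3 genes. Itgb2, which encodes the leukocyte β2 chain, had 852, 762, 1281, 1460 and 1232 CPM in Tomato+ replicates 1 to 5, and 4.54, 1362, 1330 and 1652 CPM in Tomato- replicates 1 to 4 and 1880 CPM in Tomato- replicate 5. Itgal, whose αL product pairs with β2, had 503, 519.6, 616, 244 and 919.5 CPM in Tomato+ replicates 1 to 5, and 0, 61.0, 48.4, 414 and 3.33 CPM in Tomato- replicates 1 to 5. Itgal was the integrin gene with the largest estimate, a log2 fold change of 2.45, but its standard error was 1.88 and its 95% interval ran from -1.55 to 6.45 (edgeR adjusted p = 0.9996), and Tomato- replicate 4 lay inside the Tomato+ range. Of the 9 leukocyte markers, 5 were at 0 in all libraries, including Cd3e and Csf1r. S100a9 had 239.8 CPM in 1 Tomato+ library and 0 elsewhere. Ptprc had 1.2 CPM and Nkg7 20.7 CPM, each in 1 Tomato- library only. The leukocyte marker sum lay between 6256 and 8931 CPM in Tomato+ libraries and between 5881 and 9029 CPM in Tomato- libraries and was nearly all Lyz2, a lysozyme gene.

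Itgb5 encodes β5, a partner of αv, and had counts where Itgav had none. It had 950.4, 1715, 440, 795 and 1231 CPM in Tomato+ replicates 1 to 5, and 0, 18.1, 1544, 1351 and 3264 CPM in Tomato- replicates 1 to 5. The 2 lowest libraries were again among those with few detected genes, but so was the highest, Tomato- replicate 5. Its log2 fold change was -0.08 and that of Itgb2 was 0.06 (edgeR adjusted p = 0.9996 for both). Itgb4, the partner of α6 in epithelial cells, had 141 and 96.2 CPM in Tomato+ replicates 4 and 5, and 541, 106 and 122 CPM in Tomato- replicates 2, 3 and 4, and 0 elsewhere. Of the 19 integrin genes outside the 7, 4 were tested and 0 were called in either direction.

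**Figure D4:**
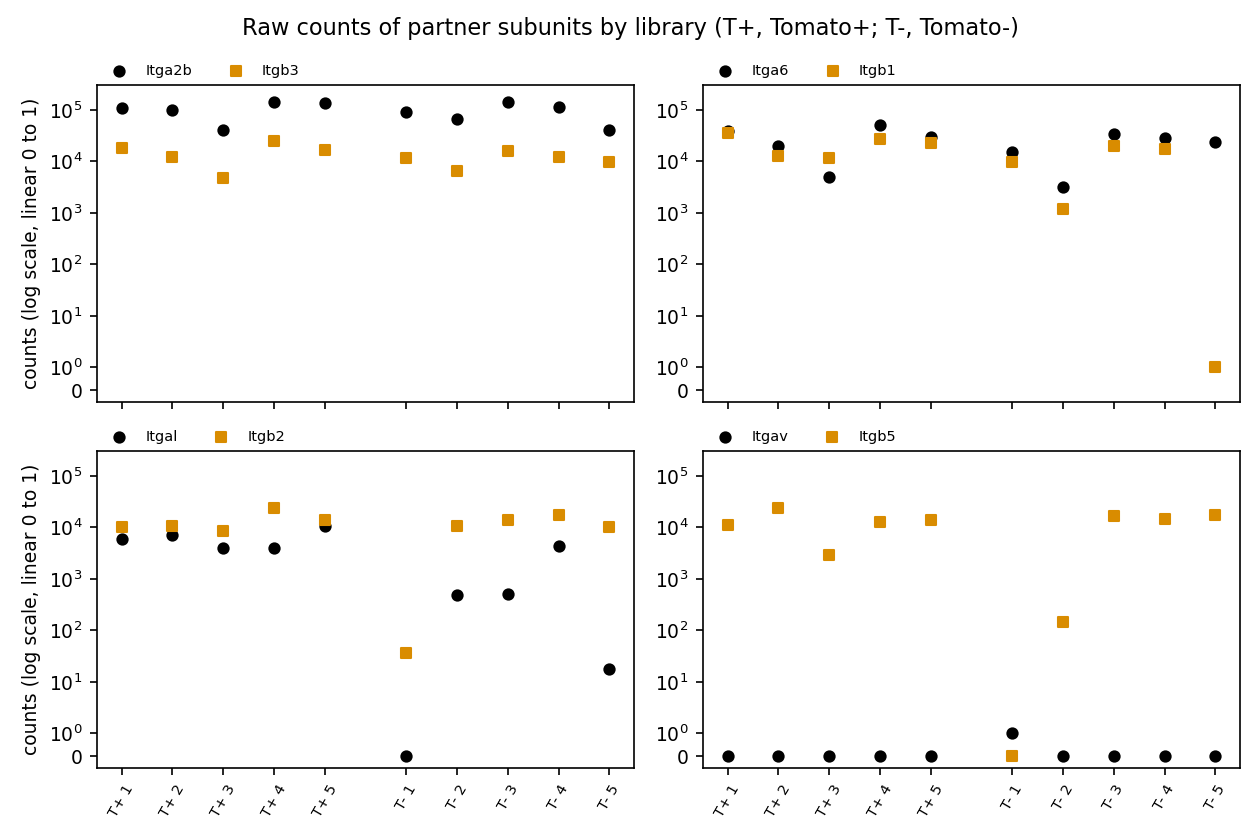
Counts of an alpha gene and its partner beta gene by library, on a symmetric log axis, for Itga2b with Itgb3, Itga6 with Itgb1, Itgal with Itgb2 and Itgav with Itgb5, Tomato+ replicates left of Tomato- replicates. Itga2b and Itgb3 have counts in all 10 libraries, while Itgb1 has 1 count in Tomato- replicate 5 and Itgav 1 count in Tomato- replicate 1.

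Across libraries the αIIb and β3 transcripts varied little relative to each other. Likeness of 2 genes was measured as the SD over the 10 libraries of the log2 ratio of their CPM, with smaller values for genes that keep their ratio, among the 225 genes with at least 10 counts in every library. The genes most like Itga2b were Pf4, the platelet factor 4 chemokine gene, at 0.285, B2m at 0.318 and Ppia at 0.342. Itgb3 was in place 12 of 224 at 0.379, against a median of 0.749 over those genes. The genes most like Itgb3 were Arpc2, an actin nucleation subunit, at 0.286, B2m at 0.309 and Actb at 0.349, and Itga2b was in place 5. The genes most like Itga6 were Cfl1 at 0.71, Itgb3 at 0.724 and Ctla2b at 0.728, against a median of 1.28. Itgb1 could not be ranked because 1 library had a single count. These are descriptions over 10 libraries that share depth and library preparation with every gene compared.

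By the SD of its own log2 CPM, Itga2b was in place 35 of 225 from the steadiest, at 0.350. Itgb3 was in place 56 at 0.443, and Itga6 in place 173 at 1.09. Itga6, although it had at least 3204 counts in every library, was thus more variable than most genes of that set.

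Genes for integrin ligands were mostly at 0 in all libraries. Of 17 listed, 7 had counts, 2 were tested and 0 were called. Vwf, which encodes von Willebrand factor, averaged 4964 ± 463 CPM in Tomato+ platelets and 5240.5 ± 1063 CPM in Tomato- platelets (SD, n = 5 each), with a log2 fold change of 0.16 ± 0.22 (SE). Thbs1, the gene of thrombospondin 1, averaged 1525 ± 1005 CPM in Tomato+ and 1509 ± 1046 CPM in Tomato- platelets, with a log2 fold change of 0.21 ± 0.55 (SE). Their estimates lay close to the median of all tested genes, 0.21. Lamc1, a laminin chain gene, had 47.2 CPM in Tomato- replicate 4 and Fga, the fibrinogen alpha chain gene, 25.6 CPM in Tomato- replicate 2, and both were at 0 in all other libraries.

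Genes that switch integrins on or connect them to actin were detected more widely. Of 30 listed, 21 had counts, 15 were tested and edgeR called 0 in either direction. DESeq2 called 1, Ptk2, the focal adhesion kinase gene, which had 4840 and 1478 counts in Tomato+ replicates 1 and 5 and 0 in the other 3 Tomato+ and all 5 Tomato- libraries; it did not pass the edgeR expression filter. The estimate was positive for 3 and negative for 12 of the 15, with a median log2 fold change of -0.22 beside 0.21 for all tested genes. With scaling by total counts, 2 were positive and the median was -0.38 beside -0.03. Without the 3 libraries under 1000 detected genes, 8 of 19 tested genes were positive and the median was -0.22 beside -0.0094. With limma voom the same 15 genes were 10 positive and 5 negative (median 0.35 beside 0.95 for all tested genes), and with a replicate block 8 positive and 7 negative (median 0.12 beside 0.56). The median also turned on single libraries. It was 0.06 without Tomato+ replicate 3, beside 0.23 for all tested genes, and 0.0014 without Tomato- replicate 5, beside 0.26. Cd9, a tetraspanin found beside αIIbβ3, averaged 26316 ± 4014 CPM in Tomato+ platelets and 24076 ± 3152 CPM in Tomato- platelets (SD, n = 5 each), with a log2 fold change of 0.35 ± 0.17 (SE). Rap1b, a small GTPase that drives integrin activation, averaged 2947 ± 708 CPM in Tomato+ and 3837 ± 1011 CPM in Tomato- platelets, at -0.12. Fermt3, the gene of kindlin-3, which binds beta tails, averaged 2739 ± 1191 CPM in Tomato+ and 3597 ± 1110.0 CPM in Tomato- platelets, at -0.15. Ilk, which links beta tails to actin, averaged 1353 ± 753 CPM in Tomato+ and 1957 ± 1034 CPM in Tomato- platelets, at -0.28. Ilk overlaps Rrp8 and Taf10 in the annotation, so some of its reads may be shared with them.

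Markers of red cells and vessel cells varied between libraries. Of 6 endothelial markers, 3 (Cdh5, Emcn and Egfl7) were at 0 throughout, and the sum lay between 4.39 and 294 CPM in Tomato+ libraries and between 57.8 and 270 CPM in Tomato- libraries. Of 6 red cell markers in the table, 3 were at 0, and the sum lay between 1.38 and 338 CPM in Tomato+ libraries and between 47.7 and 3440 CPM in Tomato- libraries, with means of 130.0 ± 132 CPM in Tomato+ and 929.6 ± 1431 CPM in Tomato- platelets (SD, n = 5 each). Nearly all of it was the globin gene Beta-s, with a log2 fold change of -2.71 (edgeR adjusted p = 0.9996) that was -0.94 without Tomato- replicate 4. The part of these cells in the integrin values was not tested.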

How the data were processed

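The authors deposited 1 table of raw counts per gene, whole numbers that are not normalized. Per the submitters' processing notes, Trimmomatic, FastQC, STAR and featureCounts were used with the mm10 build. Tool versions, annotation, strand setting and treatment of multi-mapping reads are not stated there, so reads shared by overlapping genes cannot be separated. All 10 value columns were matched to samples by title. Each library's total count, 5411417 to 16179973, was its library size, and no 2 libraries agreed within sampling noise.

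Tests compared the 5 Tomato+ with the 5 Tomato- libraries by edgeR 4.0.16 (quasi-likelihood, robust, TMM scaling, R 4.3.3) over genes kept by its expression filter (minimum count 10, minimum total count 15), with Benjamini-Hochberg adjustment over all 1016 tested genes and a threshold of 0.05. Alternatives were DESeq2 1.42.0, limma 3.58.1 voom, other scalings and filters, a replicate block, and leaving out libraries. The fitting code was tested on simulated data, with pass criteria only for counts with little spread between libraries. Passing them does not show how well differences are found at the spread of these libraries. Pair shares used counts divided by merged exon length (GENCODE M21, 21777 of 23420 symbols matched). They were tested by exact two-sided permutation of library labels with numpy 2.4.6, adjusted over 5 pairs. Libraries with under 10 counts in the pair were left out. Promoter sequences came from RefSeq (GRCm38.p6), with entries for 5 of 7 genes.

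All 7 genes are given in full. From each other list the 4 genes with the highest mean CPM are named, and for each gene with at least 10 counts in every library the 3 most similar genes. The genes, lists and tests were chosen with earlier results of these data known. Deviations of samples with the same replicate number were weakly correlated, at 0.0299, -0.0296, -0.107, 0.119 and -0.0328 for replicates 1 to 5. The highest correlation with another number was 0.0168, 0.0832, 0.0878, 0.0856 and 0.152. The same number was thus higher for replicates 1 and 4 and lower for 2, 3 and 5. Such small values cannot decide whether samples were paired, and the main tests did not pair them.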

Additional observations from a re-analysis of the deposited data

Results flagged for a closer look

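Groups of 5 libraries were tested, or of 4 where a pair share had no value in 1 library. In 13 of 40 groups, 1 library lay apart from the others by more than Dixon's 95% critical value. Chance flags about 1 in 20 groups, and many of these groups consist mostly of zeros.

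For the members, Itga2 had 310 CPM in Tomato+ replicate 4, where the next Tomato+ library had 8.54 CPM, and 12.0 CPM in Tomato- replicate 4, where the other Tomato- libraries had 0. The same 2 libraries stood apart in the Itga2 share of the Itga2 and Itgb1 counts per length, at 9.52% in Tomato+ replicate 4 (next 0.251%) and 0.426% in Tomato- replicate 4 (next 0%). Itgav had 0.123 CPM, 1 count, in Tomato- replicate 1 and 0 in the other Tomato- libraries, which gave it 0.0047% of the Itgav and Itgb3 counts per length there. The Itga2b share of its pair was 82.2% in Tomato- replicate 5, where the next lowest was 89.4%. The Itga6 share of its pair was 99.99% in Tomato- replicate 5, the library with 1 Itgb1 count, where the next highest was 55.5%.

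Among other genes, Itgal had 414 CPM in Tomato- replicate 4 (next 61.0 CPM) and Itgb4 had 541 CPM in Tomato- replicate 2 (next 122 CPM). Thbs1 had 3337 CPM in Tomato- replicate 1 (next 1262 CPM). Lamc1 had 47.2 CPM in Tomato- replicate 4 and Fga had 25.6 CPM in Tomato- replicate 2, each with 0 in the other Tomato- libraries.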

How the results depend on the processing

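The number of the 7 genes called stayed at 0 in 18 of 18 alternatives, with a lowest adjusted p of 0.468. Over all genes, DESeq2 called 218 and limma voom called 1; of these, Ptk2 (DESeq2, adjusted p = 3.8e-16) is a listed activation gene, and Ctla2a (limma voom) was named after its values were seen. edgeR called 0, and the cause was not tested. Estimates near 0 changed sign. The Itga2b log2 fold change of -0.03 became 0.036 without an expression filter and 0.017 with limma voom. It moved further down, to -0.23 with total counts and -0.43 without the 3 libraries under 1000 detected genes. With a replicate block it became 0.0086, and the block moved none of the 4 genes past the threshold. Itgb3 (0.10) became -0.064 with DESeq2 size factors, -0.12 with total counts, -0.039 over genes with 10 counts in every library, -0.051 with DESeq2 and -0.10 without the 3 libraries under 1000 detected genes. Itga6 (0.01) became -0.12, -0.16, -0.087, -0.10 and -0.41 in the same 5 settings. Leaving out 1 library at a time gave -0.15 to 0.11 for Itga2b, -0.10 to 0.23 for Itgb3, -0.32 to 0.29 for Itga6 and 0.75 to 1.5 for Itgb1. The Itgb1 estimate (0.995) was 3.02 with limma voom, 2.01 with the replicate block and 0.10 without the 3 libraries, and Itga6 was 0.67 with limma voom and 0.26 with the replicate block. With 1 library left out at a time, the share difference of Itga2b with Itgb3 ran from -2.07 to 0.256 points. It was -2.21 points without the 3 libraries under 1000 detected genes. For Itga2 with Itgb1 the leave-out range was -0.0438 to 2.34 points, the lowest without Tomato+ replicate 4. For Itga6 with Itgb1 the exact permutation p was 0.0159 without Tomato+ replicate 4 (adjusted p = 0.0794). That is the smallest exact p of 5 against 4 libraries. With adjustment over 5 pairs, 1 such pair alone cannot pass the threshold when a library is left out. The 5 include the Itga5 and Itgav pairs, whose alpha genes had 0 and 1 count and whose tests could not pass. The log ratio, which leaves these out, gave Itga6 with Itgb1 an adjusted p of 0.167 over all 10 libraries (exact permutation p = 0.0556). Over all alternatives the adjusted p of Itga6 with Itgb1 ran from 0.0794 to 0.952. Without the 3 libraries, 5 libraries face 2 and the smallest exact p is 0.0952. A log ratio could not be fitted for the Itgav and Itga5 pairs, whose alpha gene had counts in fewer than 3 libraries, and Itgb1 has no value over genes with 10 counts in every library.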
